A study of Homo sapiens with 8 samples.

Results

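Cells sense oxygen through a small set of genes, and 9 of them were followed here among the 25369 genes of an expression table: HIF1A, EPAS1, ARNT, ARNT2, HIF1AN, VHL, EGLN1, EGLN2 and EGLN3. They were chosen by name, as the subunits of hypoxia-inducible factor (HIF) and the enzymes and ligase component that act on it, and all 9 were found. A HIF is a pair of an alpha subunit, HIF-1α (HIF1A) or HIF-2α (EPAS1), and a beta subunit, ARNT or ARNT2. When oxygen is present, the prolyl hydroxylases EGLN1, EGLN2 and EGLN3 modify the alpha subunit, VHL recognises the modified protein, and its ubiquitin ligase marks it for destruction. HIF1AN adds a separate hydroxyl group that blocks the binding of coactivators. In low oxygen the alpha subunit escapes, enters the nucleus and binds hypoxia response elements in target genes, which in many cell types include EGLN1 and EGLN3 themselves. The control by hydroxylation and VHL acts on the alpha subunit protein, which was not measured here.

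The cells were EPC2-hTERT, human esophageal epithelial cells immortalised with telomerase, grown as a layer on a porous support and then lifted to the air so that they stratify. In all 8 libraries the cells had 2 days to reach confluence, 5 days in medium raised to 1.8 mM calcium chloride, which drives keratinocytes to differentiate, and 4 days in air. A stable shCtrl line carried a lentiviral control hairpin RNA and a stable HIF1A-KD line carried a lentiviral hairpin RNA against HIF1A, with 4 libraries of each, numbered 1 to 4. The number of hairpins or clones behind each line is not stated in the labels. The labels also mention a DMSO vehicle and dimethyloxalylglycine, an inhibitor of 2-oxoglutarate-dependent dioxygenases such as the EGLN enzymes and HIF1AN, and tie neither to a library. A treatment that differed between libraries would therefore not be visible in the groups used here, and its part in the levels was not tested. Nothing in the labels says that the libraries came from separate cultures, so the p-values below measure only the spread between these libraries.

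Levels are in RPKM (reads corrected for the length of the gene and the depth of the library), and the implied depth was 38068729 to 65326907 reads a library. All 8 fixed squamous markers passed the filter on low values, and KRT5, a basal keratin, held 3959 to 6369 RPKM in the control line and 4616 to 5515 RPKM in the knockdown line. The summed squamous markers ran from 8565 to 12767 RPKM in shCtrl, against 12501 to 13725 RPKM in HIF1A-KD. KRT4, a keratin of the upper layers of the esophageal lining, was at 188 to 729 RPKM in shCtrl, against 1194 to 1984 RPKM in HIF1A-KD. Its groups did not overlap, which held for 5.40% of all tested genes. KRT4 had a log2 change of 2.15, KRT13, its partner keratin, of 2.37 and SOX2, a transcription factor of the basal layer, of 1.23. Each was higher in HIF1A-KD at 4 of 4 numbers, as were 18.6% of all tested genes. The groups of KRT13 overlapped, and those of SOX2 met at 1.53 RPKM in shCtrl 3 and HIF1A-KD 4. None of the 8 was called in either fit (adjusted p in limma of 0.107 for KRT4 without the block and 0.0786 with it), and the part of these shifts in the levels below was not tested. Among markers of other cell types, PTPRC, CD3E, MLANA, TYR and CDX2 were listed at 0 in all 8 libraries. The 6 fibroblast markers summed to 21.2 to 27.7 RPKM in shCtrl, against 14.1 to 19.2 RPKM in HIF1A-KD. Nearly all of this was COL1A1, the 1 that passed the filter, and COL3A1 and DCN were listed at 0 in every shCtrl library. The 5 leukocyte markers summed to 33.5 to 117 and 25.1 to 87.7 RPKM, mostly CD68, and the 4 endothelial markers to 0.748 to 15.4 and 1.39 to 12.8 RPKM, mostly VWF. The 4 melanocyte markers summed to 0.342 to 0.9003 and 0.260 to 1.95 RPKM, and the 4 of simple epithelium to 65.9 to 105 and 64.7 to 109 RPKM. In bulk RNA, fewer cells of a type and less RNA per cell cannot be told apart.

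The windows just upstream of these genes are shown because EGLN1 and EGLN3 differ in whether they hold the core letters of a hypoxia response element. Their levels had a correlation of 0.69 over the 8 libraries, and other pairs of the 9 genes ran closer. RefSeq promoter windows (GRCh38.p14) were matched for 7 of the 9 genes, and the 250 bases before each start were searched on both strands for ACGTG and GCGTG (the core letters of the element). Capitals mark a match. The windows below read 5′ to 3′ on the strand of the gene. They are chr14:61695263-61695512 (plus strand) for HIF1A, the first of its starts listed, chr1:231422288-231422537 (minus strand) for EGLN1, chr19:40798941-40799190 (plus strand) for EGLN2, the first of its starts listed, and chr14:33951075-33951324 (minus strand) for EGLN3.
HIF1A: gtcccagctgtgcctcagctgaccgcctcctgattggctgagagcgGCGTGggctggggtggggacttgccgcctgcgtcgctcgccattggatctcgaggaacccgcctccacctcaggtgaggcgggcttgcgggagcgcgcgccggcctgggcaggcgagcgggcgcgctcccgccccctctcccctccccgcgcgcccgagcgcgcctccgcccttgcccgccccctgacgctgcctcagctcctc
EGLN1: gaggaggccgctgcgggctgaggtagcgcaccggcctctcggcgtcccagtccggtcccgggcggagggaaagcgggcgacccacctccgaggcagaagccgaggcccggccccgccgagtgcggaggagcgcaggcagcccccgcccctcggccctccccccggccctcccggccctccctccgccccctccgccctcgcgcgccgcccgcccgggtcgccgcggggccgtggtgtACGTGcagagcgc
EGLN2: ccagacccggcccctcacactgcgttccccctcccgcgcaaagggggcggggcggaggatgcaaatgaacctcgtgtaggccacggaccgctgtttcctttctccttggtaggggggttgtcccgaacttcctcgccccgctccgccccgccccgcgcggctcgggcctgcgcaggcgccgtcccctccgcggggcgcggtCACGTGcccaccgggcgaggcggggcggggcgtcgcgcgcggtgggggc
EGLN3: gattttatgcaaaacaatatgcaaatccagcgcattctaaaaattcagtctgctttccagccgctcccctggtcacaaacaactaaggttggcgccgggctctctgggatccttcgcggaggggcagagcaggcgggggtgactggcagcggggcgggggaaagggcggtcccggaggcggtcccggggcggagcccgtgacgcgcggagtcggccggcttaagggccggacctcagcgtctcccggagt

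The 7 genes matched had 9 windows, and 4 of the 9 windows, from 4 genes, held a core. The second listed windows of HIF1A and EGLN2 held neither form. HIF1A held GCGTG 204 bases before its start and EPAS1 held GCGTG 117 bases before its start. EGLN1 held ACGTG 13 bases before its start. EGLN2 held ACGTG on both strands at 48 and 49 bases, the 2 overlapping as the palindrome CACGTG, an E-box. The windows of EGLN3, ARNT and HIF1AN held neither form, and ARNT2 and VHL had no entry. Of 35116 windows of the same length, 43.2% held one form or the other, 18.5% held ACGTG, 32.2% held GCGTG and 6.34% held CACGTG. A match of 5 letters is a description of the sequence and not a binding site.

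Within the shCtrl line the 2 alpha subunits and EGLN3 were the most abundant of the 9 transcripts as counted, with EGLN2 uncertain for a reason given below. Mean levels ran in the order HIF1A, EPAS1, EGLN3, HIF1AN, ARNT, VHL, EGLN1, ARNT2 and EGLN2, from 89.7 to 0.622 RPKM. HIF1A was above EPAS1 and EPAS1 above EGLN3 in 4 of 4 shCtrl libraries, although the ranges of both pairs overlapped. HIF1AN and ARNT kept their order in 2 of 4 libraries, as did ARNT2 and EGLN2, so neither pair was separable. In HIF1A-KD the order began with EPAS1, which was above HIF1A in 3 of 4 libraries. HIF1A and EGLN3 could not be ordered there, since HIF1A was above EGLN3 in 1 of 4 libraries. The alpha subunits together outnumbered the beta subunits, ARNT and ARNT2, 19.0 ± 5.92 times in shCtrl and 9.70 ± 1.95 times in HIF1A-KD (SD, n = 4 each).

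**Figure D1:**
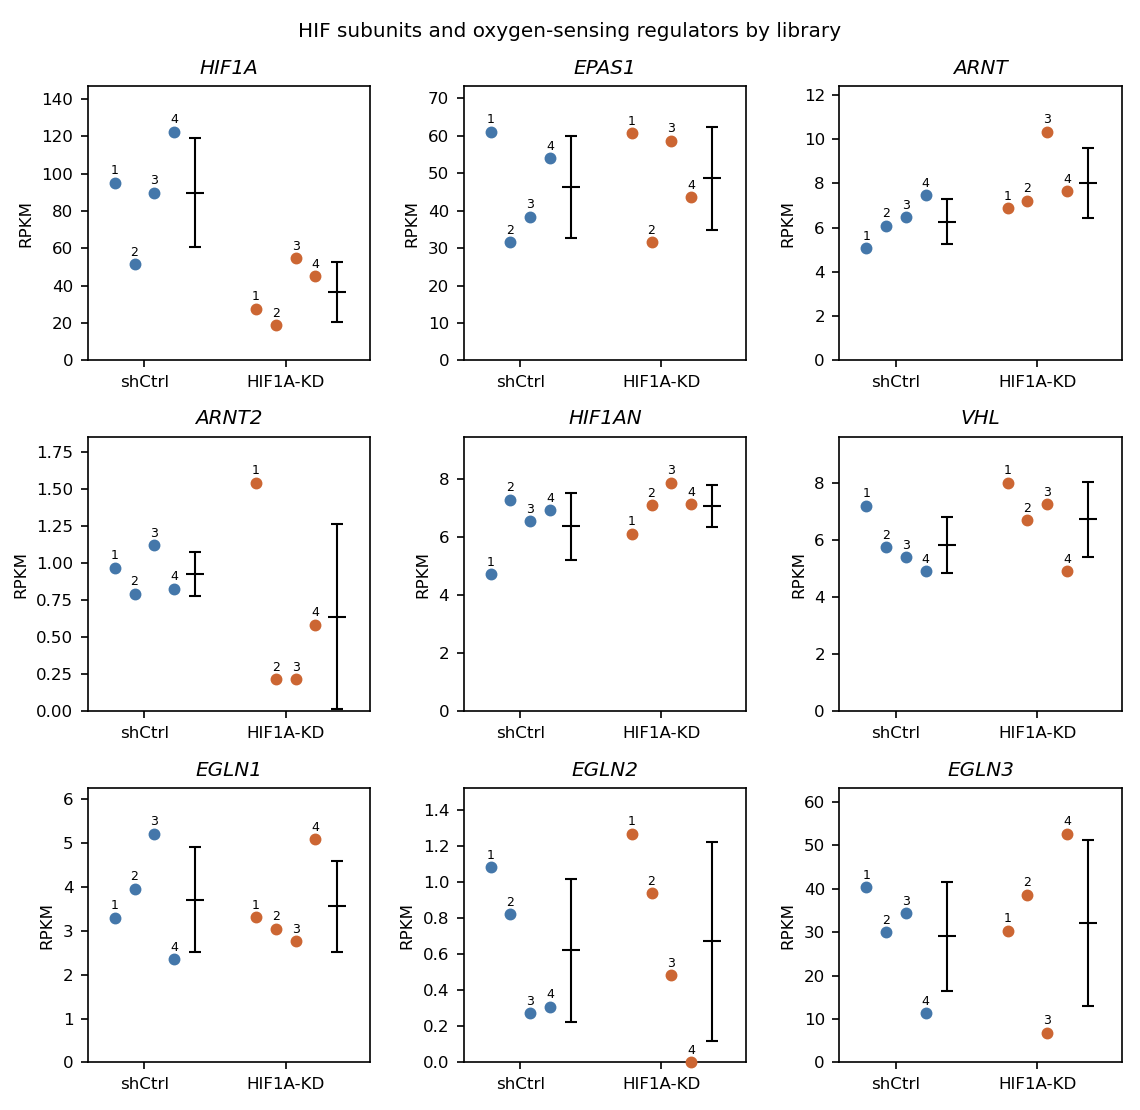
RPKM of each gene (vertical axes, each from 0) in the 4 shCtrl and 4 HIF1A-KD libraries; points carry the library number, and the black mark beside each group is the mean with its SD. HIF1A is lower in HIF1A-KD at every number, and EGLN3 runs from 6.90 RPKM in HIF1A-KD 3 to 52.7 RPKM in HIF1A-KD 4.

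HIF1A, the target of the hairpin, was lower in HIF1A-KD by every number. Its level (chromosome 14, 62162119 to 62214977, plus strand, hg19) was 95.2, 51.4, 89.8 and 122 RPKM in shCtrl 1 to 4 against 27.6, 19.0, 54.8 and 45.04 RPKM in HIF1A-KD 1 to 4. The groups overlapped, because HIF1A-KD 3 was above shCtrl 2. As a share of the shCtrl library of the same number, the HIF1A level was 29, 36.9, 61.0 and 36.8%. Number 3 kept the most by that pairing, but numbers 3 and 4 are doubtful pairs that correlated more closely when crossed. Of all tested genes, 10.7% were lower in 4 of 4 numbers. The log2 change was −1.34 (SE 0.37, unadjusted 95% interval −2.18 to −0.50), with an adjusted p of 0.319 in limma. Blocking on the library number gave an SE of 0.17 and an adjusted p of 0.0253. That call was lost without shCtrl 1 or 2, or without HIF1A-KD 1, 2 or 4, at adjusted p values in limma up to 0.188. An exact two-sided permutation test gave p = 0.0571, and the smallest that 4 against 4 allows is 0.0286. Between 5450 and 25699 reads lay behind each HIF1A value, so the spread between libraries and not counting limited it. The antisense genes HIF1A-AS1 and HIF1A-AS2 overlap it and held at most 0.348 and 0.0214 RPKM, and no label says if strand was used in counting.

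EPAS1, the other alpha subunit, did not pass the test. Its level (chromosome 2, 46524541 to 46613842, plus strand) was 61.1, 31.6, 38.4 and 54.0 RPKM in shCtrl 1 to 4, and 60.7, 31.5, 58.7 and 43.6 RPKM in HIF1A-KD 1 to 4. Numbers 1 and 2 held nearly the same level in both lines, at 99.4 and 99.8% of shCtrl. Number 3 was at 153% and number 4 at 80.8%, on pairs that are doubtful. The means were 46.3 ± 13.6 and 48.6 ± 13.7 RPKM (SD, n = 4 each). The log2 change was 0.07 (SE 0.28, 95% interval −0.56 to 0.71; adjusted p = 0.995, limma). With the block the interval was −0.30 to 0.44, which leaves out a fall as large as that of HIF1A.

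The makeup of the alpha subunits did not overlap between the lines, although its adjusted p did not, and by itself could not, reach 0.05. HIF1A made up 60.9, 61.9, 70.04 and 69.4% of the summed HIF1A and EPAS1 level in shCtrl 1 to 4. In HIF1A-KD 1 to 4 it made up 31.3, 37.6, 48.3 and 50.8%. Every HIF1A-KD library was below every shCtrl library, which the HIF1A level alone did not show. The mean share was 65.6 ± 4.81% in shCtrl and 42.0 ± 9.16% in HIF1A-KD (SD, n = 4 each), a difference of −23.6 percentage points. The exact two-sided permutation test gave p = 0.0286, the smallest that 4 against 4 allows, and 0.0857 after adjustment over the 3 shares tested. An adjusted value of 0.05 or less needed another share also at the smallest p. Missing 0.05 thus says little about this share. Without any 1 library the difference ran from −26.5 to −20.0 percentage points. Of all tested genes, 5.40% had groups that did not overlap by level, and none of the 9 genes did. That figure is for levels of single genes, and none was computed for shares of 2 genes. The 2 alpha levels had a correlation of 0.35 over the 8 libraries, a description of libraries that share a line and a depth.

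**Figure D2:**
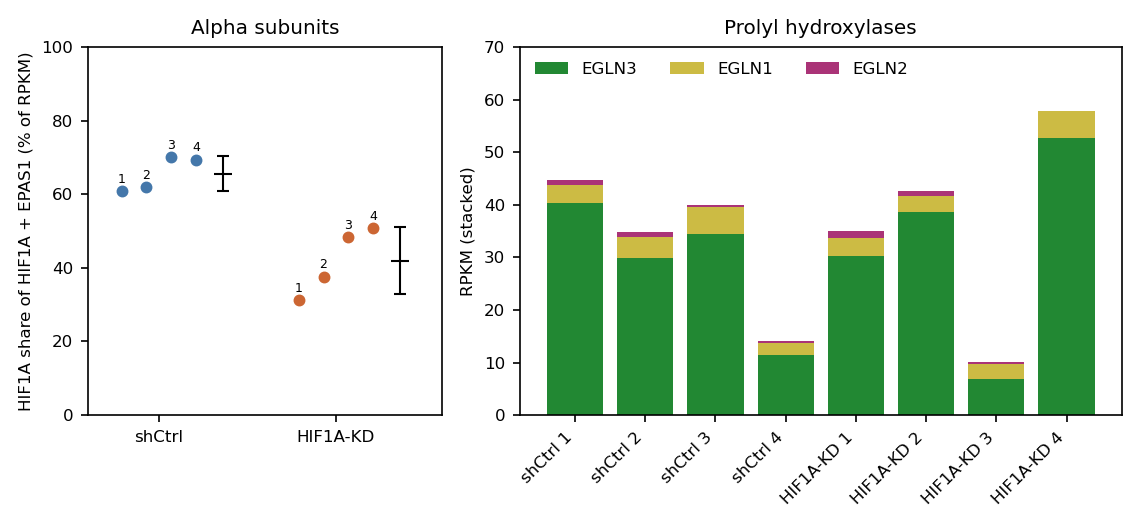
Left, the HIF1A share of HIF1A plus EPAS1 (percent of summed RPKM) by library, with number, mean and SD; right, the stacked RPKM of EGLN3, EGLN1 and EGLN2 in each library. All HIF1A-KD shares lie below all shCtrl shares, and EGLN3 makes up most of every bar, least in HIF1A-KD 3.

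ARNT, the main beta subunit, was higher in HIF1A-KD by every number but did not pass the test. Its level (chromosome 1, 150782181 to 150849244, minus strand) was 5.06, 6.08, 6.47 and 7.48 RPKM in shCtrl 1 to 4, and 6.89, 7.22, 10.3 and 7.64 RPKM in HIF1A-KD 1 to 4. HIF1A-KD 3 was highest, and number 4 was at 102% of shCtrl. The groups overlapped, because shCtrl 4 was above HIF1A-KD 1 and 2. Being higher in 4 of 4 numbers was common, at 18.6% of tested genes. The means were 6.27 ± 0.999 and 8.02 ± 1.57 RPKM (SD, n = 4 each). The log2 change was 0.34 (SE 0.20, 95% interval −0.11 to 0.79; adjusted p = 0.780, limma). With the block the adjusted p in limma was 0.262. The deposited table gives the opposite-strand gene SRGAP2D a span that takes in ARNT, at no more than 0.810 RPKM.

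ARNT2, a beta subunit best known from neurons, was at low levels, and 6 of 8 libraries reached 0.5 RPKM. Its level (chromosome 15, 80696692 to 80890277, plus strand) was 0.970, 0.794, 1.12 and 0.830 RPKM in shCtrl 1 to 4, and 1.54, 0.217, 0.216 and 0.585 RPKM in HIF1A-KD 1 to 4. The shCtrl libraries were close together, whereas HIF1A-KD held both the highest and the 3 lowest values. On 67 to 462 reads a library, the log2 change was −0.82 (SE 0.54, 95% interval −2.03 to 0.40; adjusted p = 0.824, limma). It was −1.32 without HIF1A-KD 1 and −0.53 without HIF1A-KD 2 or 3.

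HIF1AN and VHL, which act on the alpha subunit protein, were among the least variable of the 9. HIF1AN, the asparaginyl hydroxylase (chromosome 10, 102295641 to 102313681, plus strand), was at 4.71, 7.28, 6.53 and 6.91 RPKM in shCtrl 1 to 4, and 6.11, 7.10, 7.86 and 7.13 RPKM in HIF1A-KD 1 to 4. Apart from the low shCtrl 1, its values lay close together and the groups overlapped. Its log2 change was 0.16 (SE 0.19, 95% interval −0.27 to 0.59; adjusted p = 0.962, limma). VHL, the substrate receptor (chromosome 3, 10183319 to 10195354, plus strand), was at 7.22, 5.76, 5.40 and 4.93 RPKM in shCtrl 1 to 4, and 8.02, 6.71, 7.28 and 4.93 RPKM in HIF1A-KD 1 to 4. Library 1 was highest in each line and library 4 lowest, and the groups overlapped. Its log2 change was 0.20 (SE 0.21, 95% interval −0.28 to 0.67; adjusted p = 0.946, limma).

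None of the 3 prolyl hydroxylases passed the test, and EGLN3 varied widely within each line. EGLN3 (chromosome 14, 34393421 to 34420284, minus strand) was at 40.4, 29.96, 34.4 and 11.4 RPKM in shCtrl 1 to 4, and 30.3, 38.6, 6.90 and 52.7 RPKM in HIF1A-KD 1 to 4. The low libraries were shCtrl 4 and HIF1A-KD 3, and the highest was HIF1A-KD 4, a range of 7.64-fold. The means were 29.05 ± 12.5 and 32.1 ± 19.2 RPKM (SD, n = 4 each). The log2 change was −0.04 (SE 0.63, 95% interval −1.46 to 1.38; adjusted p = 0.999, limma). That interval holds a more than doubling in either direction, so the data do not show that the lines were alike in EGLN3. The within-group SD of EGLN3 was 1.08 on the log2 scale, above that of 94.6% of tested genes, whose median was 0.40. By number, EGLN3 in HIF1A-KD stood at 75.1, 129, 20.0 and 463% of shCtrl. The values of numbers 3 and 4 rest on doubtful pairs. Across genes, shCtrl 4 correlated with HIF1A-KD 3 at 0.613 and shCtrl 3 with HIF1A-KD 4 at 0.463, against 0.252 and 0.257 for matched numbers. Crossed in this way, 6.90 RPKM stands against 11.4 RPKM and 52.7 against 34.4 RPKM, a smaller gap in each.

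EGLN1, the prolyl hydroxylase that sets HIF-1α turnover in most cells, was at 3.30, 3.97, 5.22 and 2.36 RPKM in shCtrl (chromosome 1, 231499497 to 231560790, minus strand). In HIF1A-KD it was at 3.31, 3.05, 2.77 and 5.09 RPKM. As for EGLN3, shCtrl 4 was the lowest in its line, and HIF1A-KD 3 the lowest and HIF1A-KD 4 the highest in theirs. The correlation of EGLN1 with EGLN3 over the 8 libraries was 0.69. The log2 change of EGLN1 was −0.04 (SE 0.29, 95% interval −0.70 to 0.61; adjusted p = 0.998, limma).

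EGLN2, the hydroxylase whose first listed window held the palindrome, had with ARNT2 the lowest levels of the 9. It (chromosome 19, 41305048 to 41314346, plus strand) was at 1.08, 0.822, 0.274 and 0.310 RPKM in shCtrl 1 to 4, and 1.27, 0.939, 0.484 and 0 RPKM in HIF1A-KD 1 to 4. Libraries 1 and 2 were above 3 and 4 in each line, and HIF1A-KD 4 held 0 reads, which at 3 reads allows up to 0.0333 RPKM of counting error alone. The other libraries held 34 to 145 EGLN2 reads. Its log2 change was −0.25 (SE 0.82, 95% interval −2.11 to 1.604; adjusted p = 0.992, limma), and it was 0.56 without HIF1A-KD 4. A readthrough gene, RAB4B-EGLN2, covers all 9299 bases of EGLN2 on the same strand and was listed at no more than 0.0652 RPKM, so reads of EGLN2 may have been divided or set aside and its values are uncertain.

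The makeup of the prolyl hydroxylases overlapped between the lines. EGLN3 made up 90.2, 86.2, 86.2 and 81.0% of their summed level in shCtrl and 86.9, 90.6, 67.9 and 91.2% in HIF1A-KD. EGLN3 was thus the most abundant of the 3 transcripts as counted in every library, and lowest in share in HIF1A-KD 3. Because the EGLN2 values are uncertain beside its readthrough gene, so are these shares and the place of EGLN3 above EGLN2. EGLN3 above EGLN1 does not rest on EGLN2. The mean shares were 85.9 ± 3.77 and 84.2 ± 11.0% (SD, n = 4 each; exact permutation p = 0.971). The EGLN1 share was 7.37, 11.4, 13.1 and 16.8% in shCtrl and 9.49, 7.16, 27.3 and 8.81% in HIF1A-KD (exact permutation p = 0.943, adjusted 0.971). The EGLN3 to EGLN1 ratio of levels was lowest in HIF1A-KD 3, at 2.49, and highest in HIF1A-KD 2, at 12.6.

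**Figure D3:**
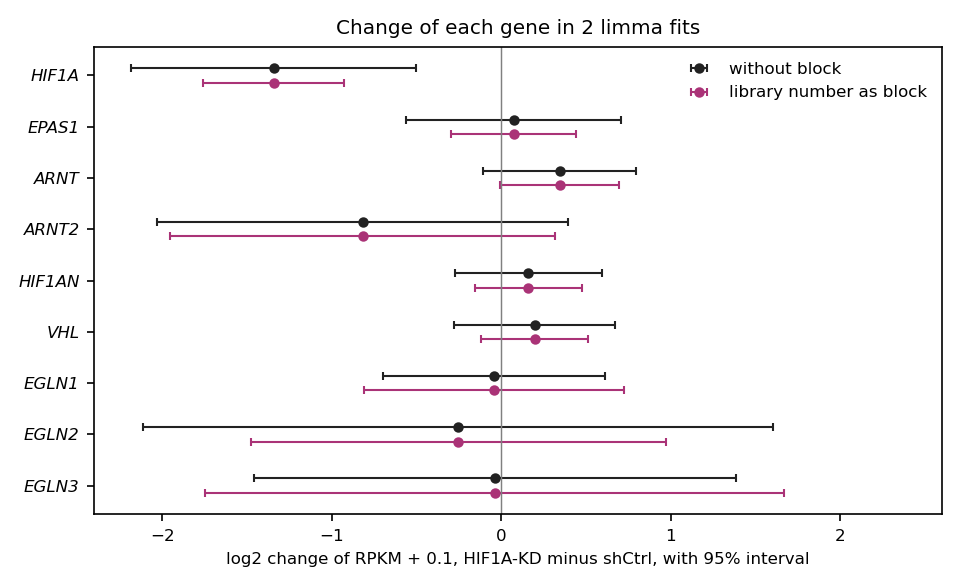
Log2 change of each gene, HIF1A-KD minus shCtrl, on the log2(RPKM + 0.1) scale (horizontal axis) with its unadjusted 95% interval, from limma without (black) and with (purple) the library number as a block. The HIF1A intervals lie below 0 in both fits, those of the other 8 genes include 0, and the widest are those of EGLN2 and EGLN3.

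All 9 genes passed the filter of at least 0.5 RPKM in at least 4 libraries, as did 11899 genes in all, with ARNT2 and EGLN2 in 6 and 4 libraries. None of the 9 was called without the block (limma, adjusted p of 0.05), where 5 genes or 0.0420% were called. With the block 1 of the 9, HIF1A, was called, where 218 genes or 1.83% were. Without the block, 928 of the 11899 tested genes had an unadjusted p below 0.05 in limma, against 1 of the 9, HIF1A. In the authors' deposited table HIF1A had a moderated log2 ratio of condition B over condition A of −1.29 and an adjusted p of 7.00e-12, where 9.02% of 13627 genes had an adjusted p of 0.05 or less. Its header does not say which group is A. The adjusted p of the other 8 genes in the authors' deposited table ran from 0.255 for ARNT to 1.00 for EPAS1.

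The genes whose levels followed each of the 9 most closely over the 8 libraries are given as a description, from 7129 tested genes of at least 5 RPKM. For HIF1A these were EMB (r = 0.973), SRSF6 (0.964) and NRP2 (0.959). For EPAS1 they were TBRG1 (0.987), MTHFD2 (0.982) and AP1AR (0.982), 3 of 137 genes at 0.9 or above. Genes at 0.9 or above numbered 26 for HIF1A, 90 for ARNT, 75 for HIF1AN, 22 for VHL, 86 for EGLN2 and 2 for ARNT2. For ARNT they were LAMTOR2 (0.992), HSDL2 (0.991) and MRPL57 (0.985), and for HIF1AN they were LANCL1 (0.982), RPA2 (0.969) and DNAJC30 (0.964). VHL ran most closely with PIGF (0.964), IRF2BP1 (0.962) and ZNF428 (0.952), EGLN2 with PISD (0.989), COA6 (0.987) and PIGH (0.983), and ARNT2 with COL4A3BP (0.931), RPL29 (0.927) and KIAA1191 (0.878). EGLN1 had 2 genes at 0.9 or above, KDM3A (0.917), a histone demethylase gene known as a HIF target, and MAPKAPK5 (0.903), followed by TPP2 (0.897). EGLN3 had 9, led by SPTLC2 (0.948), SNX33 (0.943) and HES1 (0.940), a Notch target with its lowest levels in HIF1A-KD 3 (6.03 RPKM) and shCtrl 4 (6.73 RPKM).

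Partners of the 9 genes were examined as fixed lists, and none of their members was called without the block. Over all tested genes the median log2 change was 0.06, and 58.7% of genes were above 0. The 9 partners of VHL in its ubiquitin ligase had 6 above 0 and a median of 0.03. The most abundant were TCEB2 (elongin B), at 171 ± 39.5 RPKM in shCtrl against 169 ± 37.9 RPKM in HIF1A-KD, and NEDD8, which activates cullins, at 88.8 ± 24.7 and 97.5 ± 33.6 RPKM (SD, n = 4 each). The 21 genes of alpha subunit stability had 15 above 0 and a median of 0.11. Their most abundant were GNB2L1 (RACK1), at 1135 ± 161 and 1088 ± 176 RPKM, and HSP90AB1, at 371 ± 81.6 and 327 ± 62.1 RPKM. The 13 of 14 coactivators and regulators of transactivation tested had 11 above 0 and a median of 0.20, led by PKM, at 706 ± 72.5 and 613 ± 92.0 RPKM, and the thioredoxin gene TXN, at 185 ± 25.6 and 237 ± 66.0 RPKM.

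Relatives of the HIF subunits in the bHLH-PAS family and of the EGLN enzymes were centred near the median of all genes. Of 15 bHLH-PAS genes 10 were tested, 5 above 0 and 5 below, with a median of 0.02. The clock genes PER1 and NPAS2 were the most abundant, at 30.3 ± 14.8 and 30.9 ± 17.6 RPKM and at 21.7 ± 2.13 and 16.1 ± 5.15 RPKM (SD, n = 4 each). HIF3A, which encodes a further alpha subunit, was at no more than 0.00323 RPKM. Of 25 other oxygen- and 2-oxoglutarate-dependent dioxygenases 24 were tested, 16 above 0 and 8 below, with a median of 0.05. Seen after the values, those below 0 took in every collagen hydroxylase of the list. These were P4HA1 at −0.67, P4HA2 at −0.40, PLOD1 at −0.31, PLOD2 at −0.63 and PLOD3 at −0.73. Their most abundant were P4HA2, a collagen prolyl hydroxylase, at 38.5 ± 12.6 and 28.8 ± 8.14 RPKM, and the histone demethylase gene KDM2A, at 24.9 ± 1.68 and 26.3 ± 2.23 RPKM.

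PLOD3, a collagen lysyl hydroxylase, was the 1 dioxygenase called with the block. It was at 15.1, 17.2, 14.1 and 14.1 RPKM in shCtrl 1 to 4, and 8.65, 10.001, 10.6 and 7.39 RPKM in HIF1A-KD 1 to 4. Every HIF1A-KD library lay below every shCtrl library, as also for PLOD2, which was called in neither fit. Of all tested genes, 5.40% had groups that did not overlap in one direction or the other. Against 1 of the 24 dioxygenases, the block called 1.83% of all tested genes. The PLOD3 log2 change was −0.73 (SE 0.17), with an adjusted p of 0.227 in limma without the block and 0.0495 with it. The call with the block was lost when either library of number 1, 2 or 4 was left out, at adjusted p values in limma of 0.0735 to 0.267, while the log2 change stayed between −0.84 and −0.66 with any 1 library left out.

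No textbook HIF target gene was called with or without the block, and many had their lowest level in the library lowest in EGLN3. All 30 were tested, 11 above 0 and 19 below, with a median log2 change of −0.13. That median was −0.04 without HIF1A-KD 3 and −0.27 without shCtrl 4. The most abundant were GAPDH, at 839 ± 162 and 630.4 ± 140 RPKM, and NDRG1, at 608 ± 181 and 675 ± 321 RPKM (SD, n = 4 each). HIF1A-KD 3, the library lowest in EGLN3, was the lowest library for 13 of the 30 targets, or 43.3%, against 9.69% of all tested genes. It was the highest for 0 of them, against 19.5% of all tested genes. HIF1A-KD 4, highest in EGLN3, was the highest for 8, or 26.7%, against 12.6%. shCtrl 2 was the highest for 12, or 40.0%, against 13.6%, but was not high in EGLN3, at 29.96 RPKM. shCtrl 4, next lowest in EGLN3, was the lowest library for 4 targets, or 13.3%, against 6.98% of all tested genes. ANKRD37 was chosen after its values were seen and does not stand for the 30. It was at 10.6, 8.08, 32.9 and 3.54 RPKM in shCtrl 1 to 4, and 15.1, 11.1, 2.77 and 34.6 RPKM in HIF1A-KD 1 to 4. Its lowest libraries were those of EGLN3, shCtrl 4 and HIF1A-KD 3. HIF1A itself was highest of its line in each of these 2 libraries, at 54.8 RPKM in HIF1A-KD 3 and 122 RPKM in shCtrl 4. It was next highest of its line in the libraries highest in EGLN3, shCtrl 1 (95.2 RPKM) and HIF1A-KD 4 (45.04 RPKM). The correlation of HIF1A with EGLN3 over the 8 libraries was −0.31, so HIF1A did not simply run opposite to EGLN3.

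**Figure D4:**
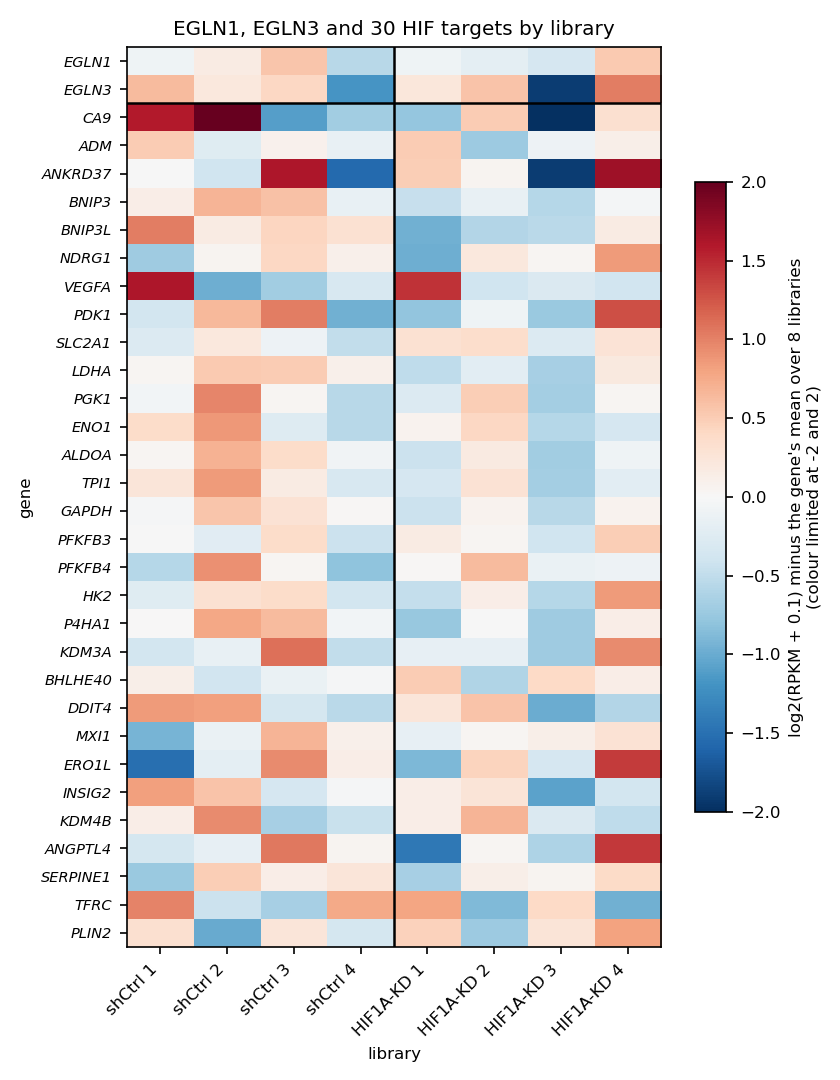
EGLN1, EGLN3 and 30 HIF target genes (rows) in the 8 libraries (columns); colour is log2(RPKM + 0.1) minus the mean of the gene over the libraries, limited at −2 and 2, red above and blue below. EGLN3 and many targets are blue in HIF1A-KD 3, the lowest library for 13 of the 30 targets, and several are red in HIF1A-KD 4, the highest for 8.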

How the data were processed

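The expression table holds RPKM made by the authors for 25369 genes, although it is named for raw counts, and its gene coordinates are of hg19. Per the submitters' processing notes the reads were handled with TopHat2 2.0.13, Bowtie2 2.2.3.0 and HTSeq 0.6.1, beside SAMtools 1.3.1, Picard 1.129, FastQC 0.11.5 and bcl2fastq. Whole reads were recovered from RPKM and gene length in 100% of genes (tolerance 0.01 read), apart from 597 whose length was unreadable. The authors' deposited comparison table gives a signal (mean normalised reads), a fold ratio, its log2 and p-values. Its tool is not stated.

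Changes were tested with limma 3.58.1 (R 4.3.3) on log2(RPKM + 0.1), two-sided, over genes of at least 0.5 RPKM in at least 4 libraries, with Benjamini-Hochberg adjustment over all of them and a threshold of 0.05. Fold changes on this scale understate those of low genes. Single values were tested by exact permutation (SciPy 1.17.1). Promoter windows are from RefSeq on GRCh38.p14 and no coordinate was converted. Only the unblocked fit was run on simulated data. There the spread of each gene was capped below the real median SD of 0.40, and libraries were independent. That run therefore does not measure how well either fit performs on these data.

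Deviations from the group mean correlated across genes between same-numbered libraries at 0.754, 0.730, 0.252 and 0.257 for numbers 1 to 4. All exceed 0.1, so the number was treated as a pairing that comes from the values alone. Numbers 3 and 4 are doubtful pairs, because crossing them gave 0.463 (shCtrl 3, HIF1A-KD 4) and 0.613 (shCtrl 4, HIF1A-KD 3). The block is an alternative to the unblocked fit. Other alternatives were the pseudocount, the filter, the scaling, limma-voom on recovered reads, each library left out, and libraries 1 and 2 or 3 and 4 alone.

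The 9 genes, the lists and the markers were chosen with earlier results of these data known. The rule for named genes took the 9, each list's called members and its 2 most abundant, and the 3 closest in pattern to each of the 9. Outside it stand cell type markers, genes that overlap the 9, and HIF3A, P4HA1, PLOD1, PLOD2, ANKRD37, PER2 and CITED2, named after their values were seen.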

Additional observations from a re-analysis of the deposited data

Results flagged for a closer look

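The EGLN1 share of the summed prolyl hydroxylase level was 27.3% in HIF1A-KD 3, far above the other HIF1A-KD libraries, whose shares were 9.49, 7.16 and 8.81%. The gap to the nearest of them was 0.885 of the whole range of the group. In that library the EGLN3 level was at its lowest of all 8, at 6.90 RPKM, while EGLN1 was at 2.77 RPKM. Without HIF1A-KD 3 the difference in EGLN1 share between the lines changed from 1.03 to −3.67 percentage points. In all, 24 groups were examined this way, 18 of single genes and 6 of shares, and chance marks about 1 group in 20.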

How the results depend on the processing

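The count of genes called was 5 without the block and 218 with the library number as a replicate block. It was 3 with a pseudocount of 1, 3 with 0.01, 1 with no filter, 8 with median-of-ratios scaling, 3 with limma-voom on recovered reads, 0 in libraries 1 and 2 alone (644 at an unadjusted p of 0.05) and 5 in libraries 3 and 4 alone (1142). With a library left out it ran from 0 to 3 unpaired and from 1 to 239 paired. The log2 change of HIF1A was −1.34 in both fits (adjusted p 0.319 unpaired and 0.0253 with the block, limma), and ran from −1.59 to −1.07 unpaired and −1.55 to −1.20 paired with a library left out. It was −1.61 in libraries 1 and 2 alone and −1.08 in libraries 3 and 4 alone. Paired, its adjusted p with a library left out ran from 0.00867 to 0.188. The PLOD3 change of −0.73 was called with the block alone, which made the dioxygenase calls 1, and 0 to 2 paired with a library left out. PLOD3 then ran from −0.80 to −0.63 unpaired and −0.84 to −0.66 paired. The HIF target calls were 0 to 2 paired, the 2 arising without shCtrl 4, and the median log2 change of the targets ran from −0.27 to −0.035 unpaired and −0.46 to −0.019 paired. The block changed no other call of a named gene or list.

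Genes near 0 changed sign. EPAS1 was at −0.0056 in libraries 1 and 2 alone, and ran from −0.094 to 0.265 unpaired and −0.11 to 0.20 paired with a library left out. EGLN1 was at 0.094 in libraries 3 and 4 alone, and ran from −0.24 to 0.14 and from −0.42 to 0.24. EGLN2 was at 0.011 with a pseudocount of 1 and 0.19 in libraries 1 and 2 alone, and ran from −0.70 to 0.56 and from −0.55 to 0.34. EGLN3 ran from −0.44 to 0.59 and from −0.78 to 0.72. With a library left out, the differences in share ran from −4.11 to 3.64 percentage points for EGLN3, from −3.67 to 3.04 for EGLN1 and from −26.5 to −20.0 for HIF1A, the last keeping its sign. On recovered reads without length scaling, chosen for HIF1A after seeing the data, its difference was −23.7 percentage points. With a library left out, unpaired and then paired, ARNT2 ran from −1.32 to −0.53 and −1.30 to −0.44, HIF1AN from 0.025 to 0.23 and 0.09 to 0.23, VHL from 0.11 to 0.34 and 0.12 to 0.26, and ARNT from 0.22 to 0.43 and 0.24 to 0.45, all keeping their sign. ARNT2 was at −0.30 with a pseudocount of 1. Median-of-ratios scaling moved the median log2 change of all genes from 0.06 to −0.01. ARNT2 and EGLN2 had no value under the filter of 1 RPKM. The cause of these shifts was not tested. EGLN2 rested on 0 to 145 reads a library and ARNT2 on 67 to 462.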

Other observations

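Among relatives of the HIF subunits, the circadian gene PER2 varied across libraries opposite to EGLN3 at the ends of its range, an observation made after its values were seen. PER2 was at 6.03, 3.03, 4.02 and 15.3 RPKM in shCtrl and 14.3, 3.25, 20.3 and 2.93 RPKM in HIF1A-KD. Its highest libraries were HIF1A-KD 3 and shCtrl 4, the 2 lowest in EGLN3, and its lowest was HIF1A-KD 4, the highest in EGLN3. CITED2, which competes with the alpha subunits for the coactivator CBP/p300, was at 98.3, 36.7, 60.9 and 69.3 RPKM in shCtrl and 118, 27.5, 96.4 and 58.0 RPKM in HIF1A-KD. Within each line its order of libraries was that of EPAS1, with library 1 highest and library 2 lowest. For both genes the lines overlapped.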
